A study of Mus musculus with 2 samples.

Results

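The genes described here are Gata2, Gata3, Tal1, Zfpm1 and Zfpm2, which encode a pair of GATA transcription factors, a partner of theirs and the cofactors that bind them. They are 5 named genes of the mouse, selected on their measured levels in the nuclear classes of these same data, and 4 of the 5 have a row among the 19575 genes of the count table. Zfpm1 was not analysed here. Their levels were followed across Pkd2l1-positive nuclei (at least 2 Pkd2l1 UMIs, unique molecular identifiers that each count 1 captured RNA molecule), excitatory nuclei and inhibitory nuclei.

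GATA2 and GATA3 are zinc finger proteins that bind the DNA word GATA. TAL1 is a basic helix-loop-helix protein that pairs with E proteins and meets GATA factors in a complex held together by LIM-only (LMO) proteins and LDB1. ZFPM1 and ZFPM2, also called FOG proteins (friend of GATA), do not act as ordinary DNA-binding factors but attach to a zinc finger of a GATA protein and recruit corepressors such as CTBP and the NuRD complex. In the embryonic ventral cord Gata2, Gata3 and Tal1 are known to mark the inhibitory V2b neurons and the Kolmer-Agduhr neurons, the small GABA cells beside the central canal that touch the cerebrospinal fluid (CSF) and carry the channel PKD2L1.

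Single nuclei were taken from lumbar (L3-L5) dorsal spinal cord of adult mice that carried Pdyn-IRES-Cre(+/-) together with R26-LSL-Sun1.eGFP(+/-). Cre made from the prodynorphin (Pdyn) gene switches on a green nuclear envelope protein in any cell that has used Pdyn at some time, and the sorted nuclei were green, so a nucleus need not express Pdyn in the adult. One library pooled 8 injured mice, which had an incision in the left plantar hindpaw at postnatal day 3. The other pooled 8 naive littermates, exposed to isoflurane only at postnatal day 3. Both pools held mice of either sex, and both carry the same Cre and reporter alleles, so no comparison bears on those alleles.

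With 1 library per group there is no replicate, and no difference below has a test. Intervals are exact 95% intervals that cover counting error only. The injured library held 3547 nuclei and 32934588 UMIs (median 8464 per nucleus) and the naive library 4063 nuclei and 30602222 UMIs (median 6955). The libraries share 3 cell barcodes. Each nucleus was placed in a class by its own UMIs. There were 51 Pkd2l1-positive nuclei in the injured library and 109 in the naive one, 338 and 312 excitatory nuclei (at least 3 Slc17a6 UMIs and at least 3 times the UMIs of the inhibitory genes), and 1531 and 1628 inhibitory nuclei (at least 3 UMIs over Gad1, Gad2, Slc32a1 and Slc6a5 and at least 3 times the Slc17a6 UMIs). The other nuclei, 1553 and 1970 of them unclassed, mostly had fewer than 3 such UMIs. Levels are given as CPM, the UMIs of a gene per 1000000 UMIs of the nuclei summed, in which fewer nuclei with a gene and less RNA per nucleus are not separated. The classes were rebuilt here, so the study's own classes may hold other nuclei.

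The label of the first class was checked against markers of CSF-contacting neurons. Among the 160 Pkd2l1-positive nuclei, 96.2% had a UMI of Pkd1l2, which encodes another polycystin-family protein, 96.9% of the myosin gene Myo3b and 73.1% of the actin-bundling gene Espn. Gad2, the gene of a GABA-making enzyme, was found in 71.9% and Slc17a6, the vesicular glutamate transporter gene, in 5.0%. Besides these 3 and Pkd2l1 itself, which chose the nuclei, the other 6 of the 10 listed markers of these neurons were at or near 0, with 1 UMI of Sstr3 and of Crtam, 3 of Nppc and none of Chrna3, P2rx2 and P2rx3. In a clustering that kept the members out of the variable genes, 152 of the 160 nuclei fell into cluster 15. Pkd2l1 was not kept out of it, so this match is not an independent check of the label. The leading genes of that cluster included Pkd1l2, Pkd2l1, Slc26a4 and Myo3b.

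Gata2 lies on the + strand at chr6:88193891-88207032, Gata3 on the - strand at chr2:9857078-9890034, Tal1 on the + strand at chr4:115056426-115071755 and Zfpm2 on the + strand at chr15:40655035-41104592 (GRCm38, the assembly of build mm10, with the GENCODE annotation). The RefSeq table of promoters (GRCm38.p6) had entries for 4 of the 5 genes, and for Gata2, Gata3 and Tal1, which were found in the same nuclei, the 250 bases before a transcription start are shown. Gata2 and Tal1 have another listed start each, whose windows held none of the words searched. The window with the most words was the one shown, so the Tal1 start was picked for its match. The RefSeq start of Gata3 lies inside the longer GENCODE gene. GATA proteins bind words that start with AGATA or TGATA, so AGATAA and also AGATAG were searched, as were TGATAA and also TGATAG, on both strands, and matches are in capitals. The windows are chr2:9878601-9878850 on the - strand for Gata3, chr6:88193641-88193890 on the + strand for Gata2 and chr4:115056176-115056425 on the + strand for Tal1.
Gata3: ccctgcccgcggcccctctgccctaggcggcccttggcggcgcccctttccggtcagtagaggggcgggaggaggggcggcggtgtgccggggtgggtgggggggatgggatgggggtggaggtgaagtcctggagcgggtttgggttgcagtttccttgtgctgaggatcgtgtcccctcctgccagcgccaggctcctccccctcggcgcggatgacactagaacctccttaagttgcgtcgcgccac
Gata2: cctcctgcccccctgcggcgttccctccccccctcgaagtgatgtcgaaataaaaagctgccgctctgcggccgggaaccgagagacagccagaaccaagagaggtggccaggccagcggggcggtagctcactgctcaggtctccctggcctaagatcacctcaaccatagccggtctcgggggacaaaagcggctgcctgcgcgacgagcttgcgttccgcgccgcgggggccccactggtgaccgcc
Tal1: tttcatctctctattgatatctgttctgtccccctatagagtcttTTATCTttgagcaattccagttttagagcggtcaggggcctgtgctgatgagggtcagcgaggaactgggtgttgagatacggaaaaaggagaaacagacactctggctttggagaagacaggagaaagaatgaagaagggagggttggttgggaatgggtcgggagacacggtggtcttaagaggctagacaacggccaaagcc
The Tal1 window held 1 word, TTATCT, which is AGATAA read on the other strand, with 199 bases between it and the start. The Gata2 and Gata3 windows held none, which says only that these letters are not in these bases. The first 50 transcribed bases of Gata3, not shown, held 1 word. Of the 32851 windows of the same length in the table, 26.5% held at least 1 of the words, so a match is common.

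Gata3, Gata2 and Tal1 were detected almost solely in Pkd2l1-positive nuclei. Those nuclei held 149 of the 152 Gata3 UMIs of the whole table (98.0%), 59 of the 61 Gata2 UMIs (96.7%) and 107 of the 121 Tal1 UMIs (88.4%), while they made up 2.10% of the nuclei. Zfpm2 was different: 518 of its 5618 UMIs (9.22%) lay there, and the rest were spread over excitatory, inhibitory, glia-led and unclassed nuclei. The genes were chosen for these patterns, so the class differences are descriptions.

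Gata3, known also as a gene of T cell fate, had 50 UMIs in injured and 99 in naive Pkd2l1-positive nuclei, or 147 CPM (109 to 193) and 147 CPM (119 to 179). Excitatory nuclei had 1 Gata3 UMI in each library, 0.241 CPM in the injured and 0.315 CPM in the naive one, and inhibitory nuclei had 1 UMI in the injured library and 0 in the naive one. The Pkd2l1-positive level was far above both other classes in either library. Over both libraries the ratio of Pkd2l1-positive to inhibitory nuclei was 4066 (interval 719 to 161651), a figure that rests on 1 inhibitory UMI. Against excitatory nuclei it was 537 (146 to 4477).

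Gata2, needed also in blood stem cells, had 23 UMIs in injured and 36 in naive Pkd2l1-positive nuclei, which is 67.4 CPM (42.7 to 101) and 53.5 CPM (37.4 to 74.0). No Gata2 UMI was found in 650 excitatory or 3159 inhibitory nuclei, which allows levels up to 0.410 and 0.108 CPM at 3 counts over each group. With that floor the Pkd2l1-positive level was 142 times the excitatory and 537 times the inhibitory level. The exact intervals of the 2 ratios begin lower, at 112 and 423. Both Gata2 UMIs outside the class lay in unclassed nuclei.

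Tal1 had 31 UMIs in injured and 76 in naive Pkd2l1-positive nuclei, 90.8 CPM (61.7 to 129) and 113 CPM (88.9 to 141). Excitatory nuclei of both libraries had none, and inhibitory nuclei had 5 UMIs in the injured and 1 in the naive library. The ratio to inhibitory nuclei was 487 (216 to 1356). Tal1 is also a gene of blood and endothelium. In the Pkd2l1-positive nuclei 3 of 9 microglia and blood markers were detected in the injured library and 4 in the naive one, summing to 58.6 and 59.4 CPM, below the 74.7 and 81.8 CPM of inhibitory nuclei. Of 7 endothelial markers 4 were detected in each library, at 55.7 and 40.1 CPM in Pkd2l1-positive and 33.9 and 41.1 CPM in inhibitory nuclei. Ptprc, Csf1r, Cdh5 and Kdr were among the markers at 0, while others of the same 2 lists were detected. A blood or endothelial source of the Tal1 UMIs was not tested. Of the 14 Tal1 UMIs outside the class, 2 were in the 3 injured nuclei of cluster 27, led by Inpp5d, and 4 were in inhibitory nuclei of cluster 2.

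Zfpm2, the FOG family member with a row in the table, had 188 UMIs in injured and 330 in naive Pkd2l1-positive nuclei, 551 CPM (475 to 636) and 490 CPM (439 to 546). In excitatory nuclei it had 765 and 563 UMIs, 185 CPM (172 to 198) in the injured and 177 CPM (163 to 193) in the naive library. In inhibitory nuclei it had 714 and 423 UMIs, 48.1 CPM (44.6 to 51.7) and 33.0 CPM (29.9 to 36.3). The order Pkd2l1-positive, excitatory, inhibitory held in both libraries, and no interval of one class touched that of the next. Over both libraries Zfpm2 was 12.4 times higher (11.2 to 13.8) in Pkd2l1-positive than in inhibitory nuclei, 2.81 times higher (2.54 to 3.12) than in excitatory nuclei, and 4.42 times higher (4.08 to 4.79) in excitatory than in inhibitory nuclei. The last ratio depended on how nuclei were classed, with a log2 value of 2.14 by single nuclei and 2.97 by clusters, or 3.31 by clusters without those led by glia genes and those with under 20 nuclei in a library.

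All 4 members measured were at least 2-fold higher in Pkd2l1-positive than in inhibitory nuclei, where 8.95% of 13918 genes were, and 4 of 4 were at least 2-fold higher than in excitatory nuclei, where 7.72% of 11228 genes were. Zfpm2, the 1 member with 50 UMIs over both groups, was at least 2-fold higher in excitatory than in inhibitory nuclei, where 4.46% of 14371 genes were. These contrasts chose the members, so nothing is read from the counts.

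**Figure D1:**
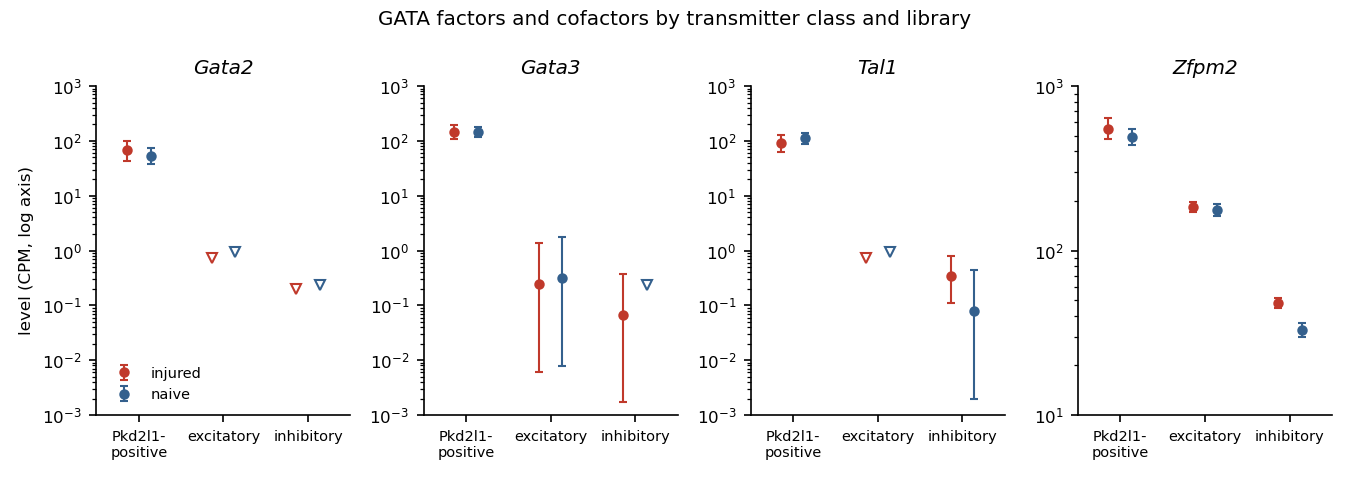
Level of each gene in CPM (log axis, with its own range for Zfpm2) in Pkd2l1-positive, excitatory and inhibitory nuclei of the injured library (red, left) and the naive library (blue, right). Bars are 95% counting intervals, and open triangles mark the level that a count of 0 allows at 3 counts. Gata2, Gata3 and Tal1 lie between 53.5 and 147 CPM in Pkd2l1-positive nuclei and under 1 CPM elsewhere, while Zfpm2 steps down over the 3 classes.

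Background from RNA that leaked between droplets was read from 118 nuclei with oligodendrocyte markers and few transmitter UMIs. They had no UMI of Gata2, Gata3 or Tal1, with an exact interval up to 3.08% of nuclei for each gene. Among Pkd2l1-positive nuclei 26.2% had a Gata2 UMI, 53.1% a Gata3 UMI and 37.5% a Tal1 UMI. Median depths were 3235 UMIs in the marked and 5202.5 UMIs in the Pkd2l1-positive nuclei. For Zfpm2 the marked nuclei gave 33.8% in the injured and 15.9% in the naive library, above the 14.8% and 10.9% of inhibitory nuclei. Their Zfpm2 level, 142 and 65.0 CPM, was also above that of inhibitory nuclei, so they give no background level for this gene, and none was measured. The share of nuclei with a Zfpm2 UMI differed between inhibitory clusters of like depth: it was 43.8% in injured and 41.8% in naive nuclei of cluster 12 (median depths 8928 and 7599 UMIs), against 2.64% and 1.80% in cluster 3 (8450 and 7419.5 UMIs).

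Within the class, single nuclei varied in which of the 3 genes they showed. Of the 160 nuclei, 38 had no UMI of Gata2, Gata3 or Tal1, 71 had UMIs of 1 of them, 37 of 2 and 14 of all 3. At least 1 was found in 42 of 51 injured nuclei (82.4%, 69.1 to 91.6) and 80 of 109 naive nuclei (73.4%). Depth moved with this count: the median was 4535 UMIs in nuclei with none and 6232.5 in nuclei with all 3. A Tal1 UMI was present in 44.7% (33.9 to 55.9) of the 85 nuclei with Gata3 and in 29.3% (19.4 to 41.0) of the 75 without, at median depths of 5754 and 4740 UMIs, and the intervals overlap. For Tal1 and Gata2 the shares were 38.1% in nuclei with Gata2 and 37.3% in those without. Zfpm2 was found in 84.7% of nuclei with Gata3 and 88.0% without it.

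Detection was also split by the count that defines the class. Gata2 was found in 9.52% of nuclei with 2 to 4 Pkd2l1 UMIs, 22.2% of those with 5 to 9 and 32.9% of those with 10 or more. For Gata3 the shares were 52.4%, 40.7% and 61.2%, for Tal1 33.3%, 33.3% and 41.2%, and for Zfpm2 76.2%, 79.6% and 92.9%, at median depths of 4793, 4398 and 5757 UMIs. Just inside the threshold, the 8 nuclei with exactly 2 Pkd2l1 UMIs had Gata2 in 0, Gata3 in 0, Tal1 in 1 and Zfpm2 in 5. Just outside it, the 47 nuclei with 1 Pkd2l1 UMI had Gata2 in 0, Gata3 in 0, Tal1 in 1 and Zfpm2 in 7, at a higher median depth of 7857 UMIs.

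**Figure D2:**
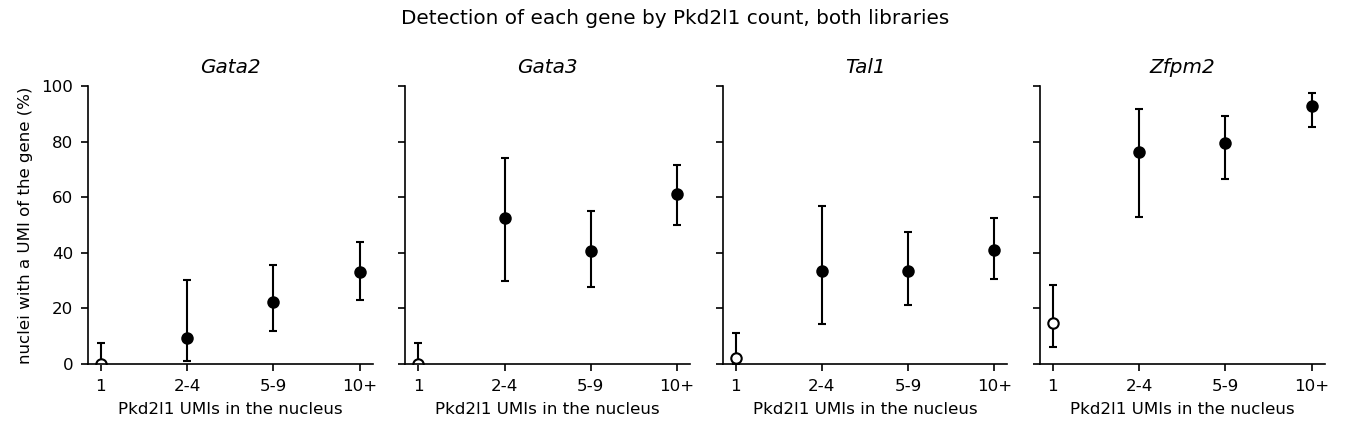
Share of nuclei with at least 1 UMI of each gene (vertical axis, percent) by the number of Pkd2l1 UMIs in the nucleus (horizontal axis), both libraries together, with 95% counting intervals. The open point at 1 UMI lies outside the class. Gata2 goes up from 9.52% to 32.9% over the 3 bins inside the class, and for every gene the intervals of neighbouring bins inside the class overlap.

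Over 26 clusters with at least 20 nuclei in each library, the genes whose log2(CPM + 1) was most like that of Gata3 were Grap2 (Pearson r 0.935), Pkhd1l1, Dcn, Slc26a4 and C1qtnf7. The same 5 came out for Tal1, with Grap2 again first (0.938). Grap2 had 338 CPM in cluster 15 against a median of 0.345 CPM over the clusters. For Zfpm2 the most alike included Adamts16 (0.844), Ogdhl, Fam189a2 and the homeobox gene Meis2 (0.811). These are descriptions over clusters of the same 2 libraries. Gata2 had under 100 UMIs and was left out.

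Across clusters Zfpm2 spanned levels between 0 CPM in naive nuclei of cluster 25 and 572 CPM in injured nuclei of cluster 15. Cluster 15, with most of the Pkd2l1-positive nuclei, had 572 CPM in the injured and 556 CPM in the naive library. Next among the neurons came excitatory cluster 16, led by Nms, Plscr4 and Tshr, with 471 CPM (420 to 525) and 405 CPM (357 to 458). Cluster 4, led by Aldh1a2, had 259 and 241 CPM, and cluster 14, led by Drd1, had 195 and 207 CPM. In clusters 15, 16, 4 and 14 the intervals of the ratio between libraries all include 1. At the low end of the excitatory clusters, cluster 23 had 21.0 and 7.57 CPM and cluster 20 had 23.0 and 2.78 CPM, on 10 and 3 and on 11 and 1 UMIs.

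Inhibitory clusters also fell into high and low ones. Cluster 11, led by Pax5, Rxfp2 and Meox2, had 162 CPM (139 to 187) in the injured and 54.1 CPM (41.2 to 69.8) in the naive library. Cluster 12, led by Atp10a and Rasgrp4, had 83.3 CPM (65.8 to 104) and 91.8 CPM (74.5 to 112). The Tac2-led cluster 8 had 28.9 and 12.5 CPM, though 3 injured nuclei held 94.6% and 1 naive nucleus 64.3% of its UMIs. Cluster 5, led by Crym, had 14.7 and 6.69 CPM, and clusters 0, 1, 3, 6, 9, 10, 17 and 25 lay between 0 and 6.50 CPM. A Zfpm2 UMI was found in 38.5% of injured and 21.6% of naive nuclei of cluster 11, with median depths of 10199 and 8320 UMIs.

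Outside the excitatory and inhibitory clusters, cluster 2 carried both inhibitory genes (262 and 265 CPM in sum) and Slc17a6 (66.0 and 83.0 CPM) and had 172 CPM of Zfpm2 in the injured and 155 CPM in the naive library. It mixed nuclei of both kinds, with 171 injured and 128 naive nuclei of the inhibitory class and 41 and 29 of the excitatory class. By single nuclei it supplied 41.5% and 45.6% of the Zfpm2 UMIs of the inhibitory class from 11.2% and 7.86% of the nuclei of that class. Cluster 22, with Aqp4 and Gja1 among its 10 leading genes, had 338 and 442 CPM, and cluster 24, led by oligodendrocyte genes, 50.5 and 57.6 CPM.

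**Figure D3:**
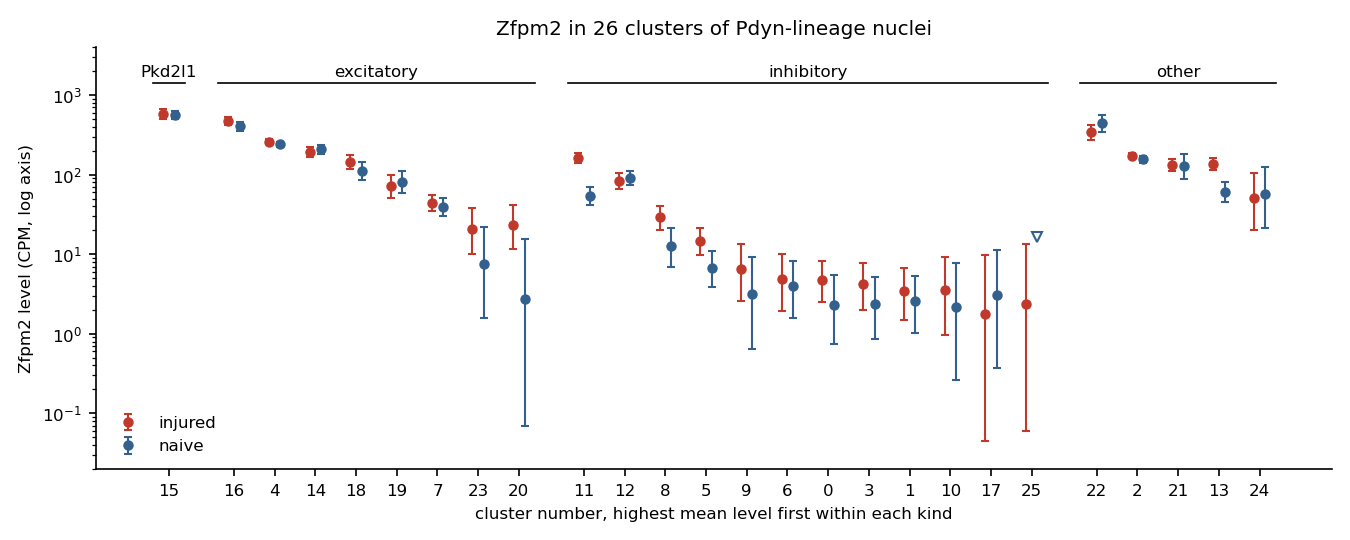
Zfpm2 level in CPM (log axis) in the 26 clusters with at least 20 nuclei in each library, injured left of naive, with 95% counting intervals. The open triangle in cluster 25 is the level that a count of 0 allows. Clusters 15, 16 and 22 lie between 338 and 572 CPM, and 8 inhibitory clusters lie between 0 and 6.50 CPM.

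Some other transcription factors known from V2b or CSF-contacting neurons were also high in the Pkd2l1-positive nuclei. In that list of 17 genes, 6 had at least 50 UMIs over the Pkd2l1-positive and inhibitory nuclei. Of these, 4 were at least 2-fold higher, as were 8.95% of all genes, and 2 at least 2-fold lower, as were 13.0%. The median log2 ratio was 2.89 against 0.06 over all genes. Sox2 (24 inhibitory UMIs) and Insm1 (31) reached 50 UMIs only with those of the Pkd2l1-positive nuclei. The count and the median therefore follow in part from that minimum, and nothing is read from them. Meis2 had 2942 and 2340 CPM in injured and naive Pkd2l1-positive nuclei, and 18.9 and 13.2 CPM in inhibitory nuclei. Sox2, known best from neural progenitors, had 132 and 107 CPM there, and 1.35 and 0.312 CPM in inhibitory nuclei. Insm1, a zinc finger gene of neuroendocrine and immature neurons, was 20.2 times higher (11.3 to 35.9) and Rreb1 2.72 times (1.71 to 4.14). Lhx1 and Bhlhe22 were the lower ones, at 0.42 of the inhibitory level each, with intervals that include 1.

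Some rarer genes of the same kind, picked after their values were seen, lay mostly in the class and others did not. Of 55 Tal2 UMIs in the table, 31 were in Pkd2l1-positive nuclei, 15 in injured and 16 in naive ones. Tal2 encodes a close relative of TAL1 that guides GABA neuron fate in the midbrain. The shares were 36 of 47 UMIs for Sox1, 28 of 41 for Nkx6-1 and 8 of 8 for Foxa2, whose UMIs were all naive. Sox14, a gene of some midbrain and thalamic GABA neurons, had 0 of its 16 UMIs there, and Nkx2-2 had 6 of 57. Gata1 had 0 of 25 and Gata4 3 of 114 UMIs in the class, and Gata5 and Gata6 were not analysed here.

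Most genes of proteins that join GATA and TAL factors did not pass 2-fold, and neither did most of all genes. Of 16 complex partners, 15 were measured, 2 were at least 2-fold higher and 2 at least 2-fold lower in Pkd2l1-positive than in inhibitory nuclei. Over all genes 8.95% were higher and 13.0% lower by that much, so nothing is read from these counts. The median log2 ratio of the partners was 0.10. Lmo1 had 80.8 CPM against 2.20 CPM in inhibitory nuclei, a ratio of 36.7 (26.01 to 52.0), while Lmo2, the family member that bridges GATA and TAL1 in blood, had 3.94 against 20.01 CPM, a ratio of 0.20 (0.05 to 0.51). Lmo3 was lower at 0.43 (0.20 to 0.83), and Ssbp3, which stabilises LDB1, was higher at 2.22 (1.83 to 2.66). The E protein gene Tcf12 was at 1.62 (1.47 to 1.78) and Tcf4 at 0.99 (0.88 to 1.10). Of 18 FOG partners and NuRD subunits, all measured, 1 was at least 2-fold higher (Gatad2a, 2.20, 1.56 to 3.03) and 1 lower (Ctbp2, 0.40, 0.05 to 1.46, on 2 UMIs). The same shares over all genes apply, and nothing is read from these counts either.

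Pax2, Pax8 and other factors of dorsal horn inhibitory neurons were lower in Pkd2l1-positive than in inhibitory nuclei, although the former carry GABA genes. All 8 measured genes of a list of 11 were at least 2-fold lower than in inhibitory nuclei, where 13.0% of all genes were lower. Their median log2 ratio was -2.70, though the intervals of Lhx1 and Bhlhe22 include 1. Pax2, which marks most dorsal inhibitory neurons, had 29.6 CPM against 209 CPM in inhibitory nuclei, a ratio of 0.14 (0.10 to 0.20), and Pax8 was at 0.18 (0.13 to 0.26). Pax2 was still 8.32 times higher (4.76 to 14.6) than in excitatory nuclei. In the list of dorsal excitatory factors, 8 of 13 measured were at least 2-fold lower than in inhibitory nuclei. Only 1 was higher, as were 8.95% of all genes, Satb1 at 6.35 (5.17 to 7.75). Ebf1 and Ebf3 of that list also had 2437 and 466 CPM in the inhibitory nuclei. Of 9 GATA and TAL relatives 2 were measured. Nhlh2 had 0 UMIs in Pkd2l1-positive and 71 in inhibitory nuclei, a ratio with an interval up to 1.46, so a difference was not detectable at this depth. Trps1, a GATA-type repressor gene, was at 1.19 (1.01 to 1.40).

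Against excitatory nuclei 1 of 15 complex partners was at least 2-fold higher in Pkd2l1-positive nuclei and 5 lower. Over all genes 7.72% were higher and 10.8% lower by that much. Lmo1 was the higher one, at 34.8 (20.5 to 62.6), and among the lower ones were Lmo4 at 0.11 (0.05 to 0.21) and Ldb2 at 0.23 (0.17 to 0.30). Sox2 was at 76.7 (41.3 to 158) and Meis2 at 19.4 (18.0 to 20.9). Of 13 measured dorsal excitatory factors 11 were lower and none higher.

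In excitatory against inhibitory nuclei, where Zfpm2 was higher, 3 of 15 complex partners were at least 2-fold higher and none lower. Over all genes 4.46% were higher and 4.91% lower by that much. The 3 were Ldb2 at 5.03 (4.66 to 5.44), Lmo4 at 4.53 (4.03 to 5.08) and Tcf4 at 3.89 (3.78 to 4.0). Meis2 was 8.07 times higher (7.21 to 9.05). Among the FOG partners, the nuclear receptor gene Nr2f1 was at 2.09 (1.70 to 2.55) and its relative Nr2f2 at 0.40 (0.23 to 0.66).

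**Figure D4:**
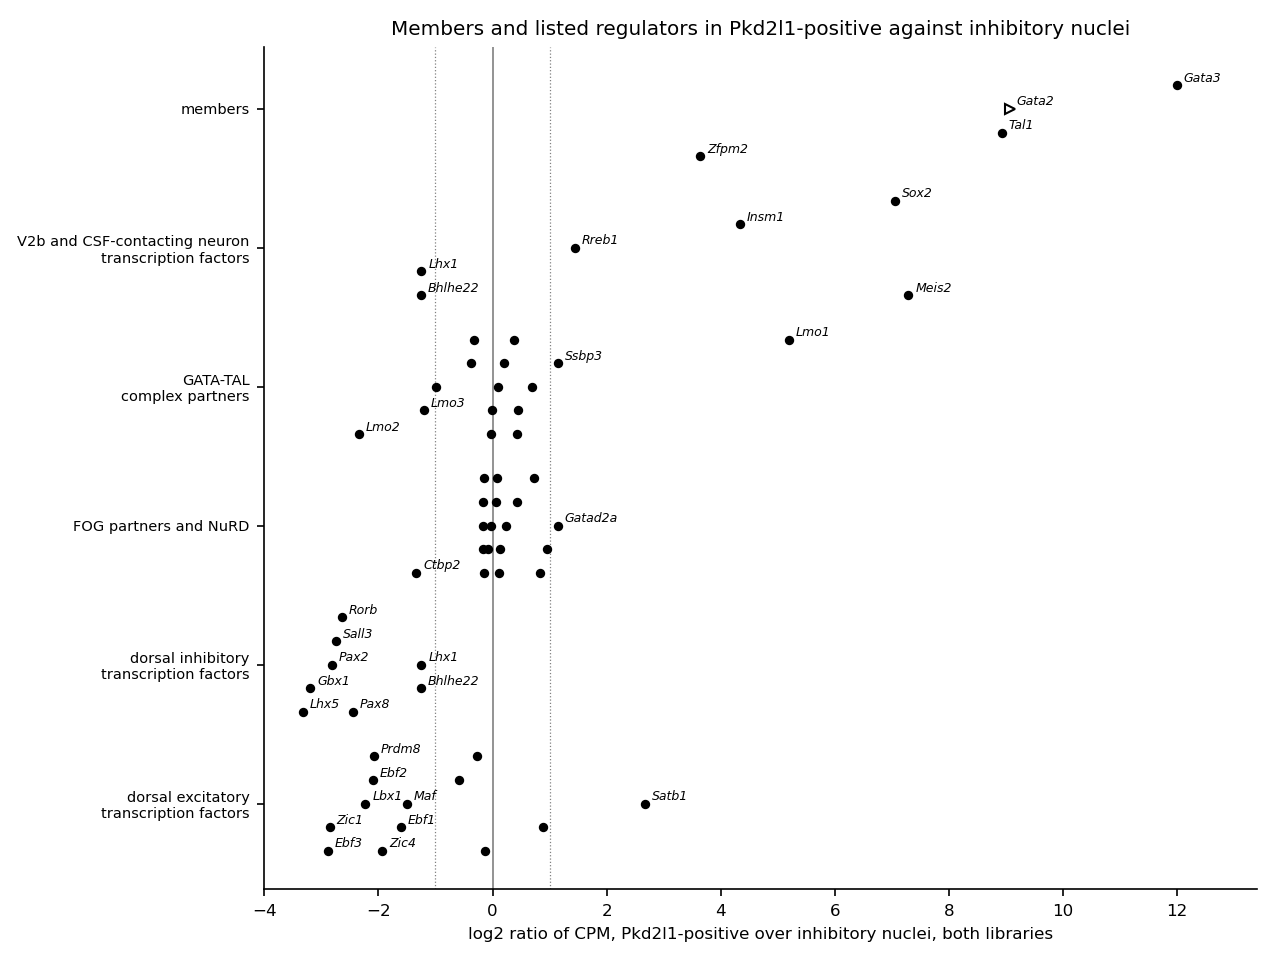
Log2 ratio of CPM, Pkd2l1-positive over inhibitory nuclei of both libraries, for the 4 members and the measured genes of 5 lists. Dotted lines mark 2-fold, genes past it are named, and the open triangle for Gata2 is a lower bound. The members, Meis2, Sox2, Lmo1 and Insm1 lie above 3, and the dorsal inhibitory factors all lie below -1.

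For the injured against the naive library the question is whether a neonatal incision left a lasting change. In Pkd2l1-positive nuclei none of the 4 members passed 1.5-fold in either direction, where 4.31% of 3947 genes were higher and 8.03% lower. Gata2 was at 1.26 (0.71 to 2.19), Gata3 at 0.997 (0.695 to 1.41), Tal1 at 0.80 (0.51 to 1.24) and Zfpm2 at 1.12 (0.93 to 1.35), and every interval includes 1. A difference inside those intervals was not detectable at this depth. Sex moved with the libraries: 31 of 51 injured and 98 of 109 naive Pkd2l1-positive nuclei had Xist but no Y-linked UMIs. Among such nuclei Tal1 was at 0.56 (0.29 to 1.03) and Gata3 at 0.93 (0.58 to 1.44). When each nucleus was thinned to 3000 UMIs, the log2 ratio of Gata3 was -0.67, past the fold, with 17 and 58 UMIs left. Gata2 went the other way in the same thinning, with 102 CPM in the injured and 57.1 CPM in the naive library, on 15 and 18 UMIs.

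Excitatory nuclei had like Zfpm2 levels in the libraries, with a ratio of 1.04 (0.93 to 1.16), so the member was not past 1.5-fold, where 1.48% of 10705 genes were higher and 4.58% lower. By clusters the ratio was 1.03 (0.96 to 1.12). In nuclei with Y-linked but no Xist UMIs it was 1.36 (1.10 to 1.69), and in those with Xist but no Y-linked UMIs 0.99 (0.86 to 1.14).

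In inhibitory nuclei Zfpm2 was higher in the injured library at 1.46 (1.29 to 1.65), just short of 1.5-fold, where 1.46% of 13778 genes were higher and 3.53% lower. Zfpm2 stood above 98.2% of the genes measured there. It was chosen with this ratio known, so its rank is a description only. A UMI was found in 14.8% of injured and 10.9% of naive nuclei, at median depths of 8651 and 7209 UMIs, and thinned to 3000 UMIs in 7.97% and 5.04%, with 1 injured and 2 naive nuclei left out. Nuclei with at least 5 Zfpm2 UMIs numbered 44 in the injured and 21 in the naive library. The result passed 1.5-fold under 8 of 13 alternatives, and its log2 value of 0.54 was 0.14 with stricter classes. The sum of 8 oligodendrocyte markers, all detected in both libraries, moved with the same contrast, at 153 and 99.7 CPM, and Zfpm2 itself had 142 and 65.0 CPM in the oligodendrocyte-marked nuclei. Cluster 2, rich in Zfpm2, made up 11.2% of the injured and 7.86% of the naive class. Their part in the result was not tested.

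Classed by cluster, without the glia-led and the small clusters, inhibitory nuclei had 21.9 CPM (19.7 to 24.2) of Zfpm2 in the injured and 12.4 CPM (10.8 to 14.2) in the naive library, a ratio of 1.76 (1.49 to 2.09), past 1.5-fold as 0.633% of 14052 genes were, with 3.10% lower. Zfpm2 was chosen with the ratio of inhibitory nuclei known, so its place among all genes is a description here too. A UMI was found in 143 of 2083 and 125 of 2507 nuclei. These levels are under those by single nuclei by more than 1.5 times, and there the oligodendrocyte sum was 83.9 and 87.0 CPM. Nuclei with only Xist UMIs gave 1.58 (1.27 to 1.96) and those with only Y-linked UMIs 1.42 (1.01 to 1.99).

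Cluster 11 held 185 of the 377 injured and 59 of the 219 naive UMIs behind that ratio. Its 109 injured and 125 naive nuclei gave a ratio of 2.99 (2.22 to 4.08). At least 5 UMIs were found in 12 injured and 2 naive nuclei. The ratio was 3.62 (2.48 to 5.41) among its nuclei with Xist and no Y-linked UMIs, and 1.25 (0.73 to 2.21) among those with Y-linked and no Xist UMIs. Its oligodendrocyte marker sum was 60.4 and 57.8 CPM. Without cluster 11, chosen after its values were seen, the log2 ratio of the inhibitory class was 0.34, against 0.54 with it. Cluster 12 had a ratio of 0.91 (0.66 to 1.24), so inhibitory clusters rich in Zfpm2 did not all move the same way, and clusters 5 and 8 had 2.20 (1.14 to 4.37) and 2.31 (1.22 to 4.62). These ratios take all nuclei of a cluster. The nuclei of cluster 5 that were inhibitory by their own UMIs had 5 Zfpm2 UMIs in 104 injured and 11 in 160 naive nuclei, the other direction, while those of cluster 11 had 168 in 89 and 49 in 88 nuclei. The difference between clusters was not tested.

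**Figure D5:**
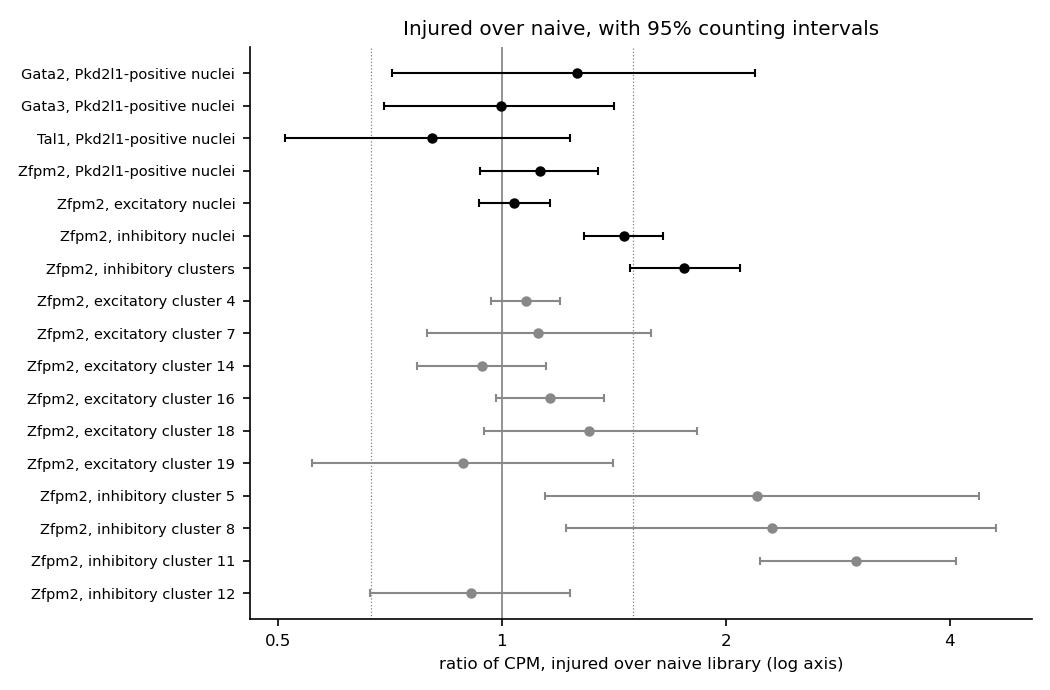
Ratio of CPM, injured over naive (log axis), with 95% counting intervals, for members with at least 50 UMIs in a class (black) and for Zfpm2 in neuronal clusters with at least 20 UMIs (grey). Dotted lines mark 1.5-fold in each direction. Ratios in Pkd2l1-positive and excitatory nuclei span 1, and that of inhibitory cluster 11 is 2.99.

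Most listed regulators did not pass 1.5-fold between the libraries, and neither did most of all genes. In inhibitory nuclei none of 15 complex partners and none of 18 FOG partners passed 1.5-fold. Over all genes 1.46% were higher and 3.53% lower there, so nothing is read from these counts. Of the dorsal factors Tfap2b was higher at 2.08 (1.33 to 3.33) and Lbx1 lower at 0.54 (0.37 to 0.77). Tfap2b is a leading gene of cluster 2, which made up 11.2% of the injured and 7.86% of the naive inhibitory class, and the part of that difference in the result was not tested. In excitatory nuclei 1.48% of all genes were higher and 4.58% lower. There 1 of 14 complex partners was lower, Lmo2 at 0.65 (0.49 to 0.85). Ctbp2 was the 1 of 17 FOG partners that was higher, at 1.57 (0.89 to 2.88). Of 13 measured dorsal excitatory factors 3 were lower, Zic1 at 0.54 (0.41 to 0.69), Prdm8 at 0.62 (0.44 to 0.89) and Tlx3 at 0.64 (0.40 to 0.99). Most of these calls were not kept when excitatory nuclei were classed by cluster. There none of 14 complex partners and none of 17 FOG partners passed 1.5-fold, and 1 of 13 dorsal excitatory factors was lower. Lmo2 was at 0.68 (0.55 to 0.83) and Ctbp2 at 1.03 (0.69 to 1.54). Nothing is read from these counts. In Pkd2l1-positive nuclei, where 4.31% of all genes were higher and 8.03% lower, Ebf3 was lower at 0.24 (0.09 to 0.53). It had 7 injured and 57 naive UMIs, and Meis2 was at 1.26 (1.16 to 1.36).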

How the data were processed

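Nuclear RNA was sequenced with 10x Genomics 3' v3 chemistry in 2 libraries. Cell Ranger 3.0.2, Seurat and build mm10 are named in the submitters' processing notes. Whether intronic reads were counted, and how nuclei were chosen, is not given in the sources used here. One deposited table held raw UMI counts of 19575 genes in 7610 nuclei, and served for all main values. The authors also deposited natural log values, ln of 1 plus the count scaled to 10000 per nucleus, which were used only to give nuclei the same weight. All deposited nuclei were used, and doublets were not removed: 395 nuclei had both Xist and Y-linked UMIs.

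UMIs were summed per class and library. Ratios carry exact conditional binomial intervals, levels Poisson and shares Clopper-Pearson intervals. Only the ratio intervals were tried on simulated data. Those counts were drawn as Poisson counts, the form the intervals assume, so the trial does not bear on UMIs clumped in a few nuclei. Genes needed at least 50 UMIs in the 2 groups compared. Clusters (28) came from scanpy 1.11.5 (leidenalg 0.10.2) with 2000 variable genes, 30 components, 15 neighbours and resolution 1.0. A cluster was inhibitory with at least 10 times the Slc17a6 UMIs and excitatory with at least 4 times the inhibitory UMIs. Named genes were the members, the 5 genes most like each, and up to 3 extremes per list and direction with at least 100 UMIs; further list genes with fewer UMIs are named to complete counts, and a few genes are not reported here. The members and lists were chosen with earlier results of these data known. Alternatives changed the class rule, thresholds, weights, depth, scaling and nuclei used.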

Additional observations from a re-analysis of the deposited data

Results flagged for a closer look

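Unclassed nuclei enter no comparison of classes, yet in the injured library Zfpm2 reached 107 CPM (101 to 112) in 1553 of them, above the 84.2 CPM (79.4 to 89.2) of the 1970 in the naive library, a ratio of 1.27 (1.17 to 1.37). Its part in the result for inhibitory nuclei was not tested.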

How the results depend on the processing

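No paired analysis was possible because each group is 1 library. With Pkd2l1-positive over inhibitory nuclei, Gata2, Gata3 and Tal1 kept their direction and stayed past 2-fold under all 13 alternatives each, with log2 ratios of 7.62 to 11.00, 9.001 to 13.05 and 8.25 to 10.44. Gata2, 9.07 at its bound, was 8.12 with stricter classes, 11.00 by clusters (1 inhibitory UMI), 8.58 with a Pkd2l1 minimum of 1 UMI, 8.42 and 7.62 in nuclei with only Xist or only Y-linked UMIs, and 7.82 thinned; where inhibitory nuclei had 0 UMIs the bound moves with the UMIs summed. Gata3, 11.99, was 9.07 with a Pkd2l1 minimum of 5 and 9.001 thinned. Tal1, 8.93, was 10.44 without the 10% deepest nuclei.

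Zfpm2 in excitatory over inhibitory nuclei, 2.14, was 2.28 with looser and 1.91 with stricter classes, 2.97 by clusters, 3.31 by clusters without glia-led and small ones (added after seeing the data), 2.53 with equal weights, 2.89 without the deepest nuclei, 1.93 and 2.99 with only Xist or Y-linked UMIs, and 2.60 thinned.

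Zfpm2 in injured over naive inhibitory nuclei, 0.54, stayed positive under 13 alternatives and passed 1.5-fold under 8. It was 0.14 with stricter classes, 0.34 with only Xist UMIs and 0.90 thinned, and, in settings added after seeing the data, 0.82 by clusters without glia-led and small ones, 0.34 without cluster 11 and 0.84 with clusters weighted alike. In excitatory nuclei, 0.06, it was 0.45 with only Y-linked UMIs. In Pkd2l1-positive nuclei Gata3, -0.00, was -0.67 thinned and passed 1.5-fold under 1 of 9 alternatives. Gata2, 0.33, ranged over 0.02 to 0.93 and passed 1.5-fold under 2 of 9. The cause of these moves was not tested.

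Thinning was drawn once. With 1 library per group, animal, batch and injury cannot be told apart, and 23 to 99 UMIs limit what the Pkd2l1-positive class can show for Gata2, Gata3 and Tal1.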

Other observations

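The sort also held glia-led groups with Zfpm2. In nuclei with oligodendrocyte markers Zfpm2 had 70 UMIs (142 CPM, 111 to 180) in the injured and 11 UMIs (65.0 CPM, 32.5 to 116) in the naive library. In cluster 13, with Pmp22 and Prx among its leading genes, Zfpm2 had 136 and 60.7 CPM, a ratio of 2.25 (1.60 to 3.19). In cluster 22 it had 338 and 442 CPM, a ratio of 0.77 (0.55 to 1.06).

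Few Gata3 and Gata2 UMIs lay outside Pkd2l1-positive nuclei. Of the 3 Gata3 UMIs, 2 lay in injured nuclei of cluster 13 and 1 in a naive nucleus of cluster 7. The cluster 13 nucleus of the inhibitory class, with 16057 UMIs, had a Tal1 UMI as well. The Gata2 UMIs lay in clusters 2 and 22.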
